A study of Mus musculus with 24 samples.

Results

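The comparison described here sets 4 libraries of tumor-derived 4T1-T cells labelled shAsns-1 (A to D) against 8 libraries of lung-derived 4T1-T cells that carried the other hairpins, 4 with shAsns-2 and 4 with shRenilla. These are 12 of the 24 libraries of the series. They were chosen from the position of all libraries on the first principal component of all genes, where the tumor libraries labelled shAsns-1 lay among the lung libraries, so every difference between them is a description and carries no p-value. 4T1-T is a mouse breast cancer line. Its cells had been recovered from primary tumors or from lung metastases and selected in 6-thioguanine (6TG), a purine analogue that kills cells with a working Hprt and so removes host cells. Each of the 6 groups of site and hairpin holds 4 libraries. In all of them, the lung controls included, the cells had been infected with an shRNA, were 6TG selected and were cultured in DMEM supplied with non-essential amino acids. shAsns-1 and shAsns-2 are directed at Asns, and shRenilla, aimed at a luciferase that mice lack, is the control hairpin. The labels do not say whether a line is 1 clone, whether animals were pooled, or what the letters A to D stand for, so a p-value rests on the spread between these libraries alone, which may be technical.

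4T1 cells grow as a tumor in the mammary fat pad and spread to the lung, and cells recovered from either place can be regrown in culture. Leaving a tumor and settling in another organ involves proteases that cut the extracellular matrix, such as the matrix metalloproteinases and the urokinase plasminogen activator, together with adhesion proteins that bind cells to the matrix and to each other. Asparagine synthetase, the product of Asns, makes asparagine from aspartate and glutamine, and Asns is switched on by the transcription factor ATF4 when amino acids run short.

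Asns was high in every library labelled shAsns-1, which goes against a knockdown. These groups are therefore called the libraries labelled shAsns-1 throughout, and each direction is one between labels. The libraries also went against their site. On the first component, which held 38.8% of the variance, tumor libraries labelled shAsns-1 scored -21.6 to -14.3, whereas the other 8 tumor libraries scored 32.4 to 43.7. The second component, with 12.2% of the variance, set them apart from the lung, with scores of 21.3 to 30.8 for tumor libraries labelled shAsns-1 and -29.2 to 9.85 for the 8 other-hairpin lung libraries. The root mean square difference in log2 CPM (a gene's counts scaled to the library's normalised total) between a tumor library labelled shAsns-1 and an other-hairpin lung library had a median of 0.460, against 0.378 between 2 of those lung libraries and 0.661 between a tumor library labelled shAsns-1 and an other-hairpin tumor library. Lung shAsns-2 D and shRenilla B stood apart from the other lung libraries. Without them the first value was 0.426 and the spread among other-hairpin lung libraries was 0.309.

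**Figure D1:**
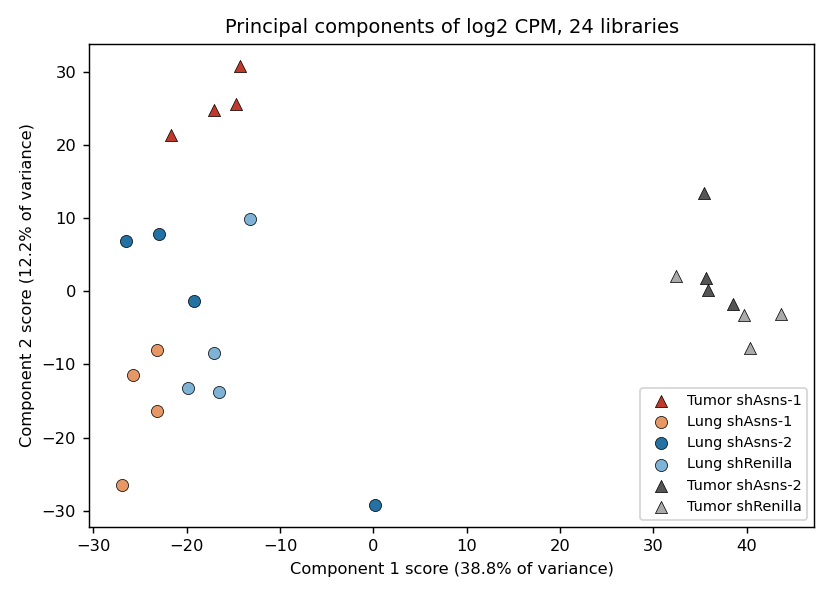
Scores of the 24 libraries on the first (x axis) and second (y axis) principal component of log2 CPM, with triangles for tumor and circles for lung libraries. The 4 tumor libraries labelled shAsns-1 lie with the lung libraries on the first component and above all of them on the second, at 21.3 to 30.8.

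Total counts of the 12 compared libraries ran from 25.6 M to 36.4 M reads. The sum of the genes listed as markers of 4T1 cells was high in all groups, and most of it was Spp1 and Vim. The summed level of Krt8, Krt18, Cdh1, Epcam, Spp1 and Vim was 7566 to 9128 CPM in tumor libraries labelled shAsns-1, 6522 to 8645 CPM in lung shAsns-2 and 8259 to 11108 CPM in lung shRenilla. Epcam alone was at 15.5 to 21.7 CPM in tumor libraries labelled shAsns-1, 17.4 to 24.4 CPM in lung shAsns-2 and 19.7 to 22.0 CPM in lung shRenilla. It was higher in tumor shAsns-2 (116 to 134 CPM) and tumor shRenilla (60.1 to 104 CPM). Alveolar and airway markers, among them the surfactant genes, summed to at most 0.193 CPM in tumor libraries labelled shAsns-1 and 0.355 CPM in lung shAsns-2. The 9 fibroblast markers summed to 24.0 to 32.4 CPM in tumor libraries labelled shAsns-1, 24.1 to 27.3 CPM in lung shAsns-2 and 26.3 to 51.4 CPM in lung shRenilla, but to 34.3 to 70.2 CPM in lung libraries labelled shAsns-1. The summed macrophage and leukocyte markers were lower in tumor libraries labelled shAsns-1, at 11.1 to 15.0 CPM, than in lung shAsns-2 at 16.5 to 19.6 CPM and lung shRenilla at 20.2 to 25 CPM. In tumor libraries labelled shAsns-1 most of the fibroblast sum was Pdgfra (23.1 to 31.5 CPM). Most of the leukocyte sum was Cd14 (9.69 to 12.7 CPM). Lyz2 was lower too, at 0.0833 to 0.676 CPM against 0.898 CPM or more in both lung groups. Ptprc, at 0.154 to 0.419 CPM, overlapped both lung groups. In bulk libraries such as these, fewer cells of a type and less RNA per cell cannot be told apart.

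Promoters are shown for genes that led the difference in either direction: Asns, the only one of the 24 genes with at least a 2-fold difference and a mean log2 CPM of 3 or more that went with the hairpin label, the 3 placental lactogen genes Prl3d1, Prl3d2 and Prl3d3, which were higher in tumor libraries labelled shAsns-1 than in any lung group, and Mmp13, the protease gene with the largest fall with a mean log2 CPM of 3 or more. Each window runs from 250 bases before to 50 after the gene's start, from RefSeq on GRCm38.p6, and is written 5′ to 3′ on the gene's strand. Capitals mark TGATGNAA (or TTNCATCA on the other strand), letters found in amino acid response elements, in the Asns window, and TGANTCA, the letters that AP-1 binds and its own reverse complement, in the other windows.
Asns, chr6:7693160-7693459, minus strand: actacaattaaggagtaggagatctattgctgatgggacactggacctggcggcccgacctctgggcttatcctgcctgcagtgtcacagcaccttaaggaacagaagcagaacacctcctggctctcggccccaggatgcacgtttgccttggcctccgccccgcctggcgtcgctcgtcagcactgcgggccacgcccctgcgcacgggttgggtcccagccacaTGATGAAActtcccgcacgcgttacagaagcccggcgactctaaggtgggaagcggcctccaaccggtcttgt
Prl3d1, chr13:27093939-27094238, plus strand: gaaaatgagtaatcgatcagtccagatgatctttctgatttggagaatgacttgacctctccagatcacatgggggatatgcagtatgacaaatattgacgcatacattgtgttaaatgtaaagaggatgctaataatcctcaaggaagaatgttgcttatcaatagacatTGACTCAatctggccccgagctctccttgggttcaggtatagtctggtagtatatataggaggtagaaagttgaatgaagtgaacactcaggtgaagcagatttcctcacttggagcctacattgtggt
Prl3d2, chr13:27121445-27121744, plus strand: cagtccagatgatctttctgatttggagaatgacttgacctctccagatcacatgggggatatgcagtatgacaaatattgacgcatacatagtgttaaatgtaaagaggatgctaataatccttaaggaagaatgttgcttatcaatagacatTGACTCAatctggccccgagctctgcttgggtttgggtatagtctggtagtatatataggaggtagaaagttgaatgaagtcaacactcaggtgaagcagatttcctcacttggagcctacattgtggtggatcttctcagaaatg
Prl3d3, chr13:27156544-27156843, plus strand: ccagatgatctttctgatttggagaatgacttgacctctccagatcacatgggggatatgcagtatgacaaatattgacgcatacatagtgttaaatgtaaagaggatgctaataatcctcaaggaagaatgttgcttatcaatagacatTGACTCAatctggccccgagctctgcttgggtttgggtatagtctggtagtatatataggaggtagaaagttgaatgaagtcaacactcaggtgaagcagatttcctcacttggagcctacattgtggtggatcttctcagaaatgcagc
Mmp13, chr9:7272264-7272563, plus strand: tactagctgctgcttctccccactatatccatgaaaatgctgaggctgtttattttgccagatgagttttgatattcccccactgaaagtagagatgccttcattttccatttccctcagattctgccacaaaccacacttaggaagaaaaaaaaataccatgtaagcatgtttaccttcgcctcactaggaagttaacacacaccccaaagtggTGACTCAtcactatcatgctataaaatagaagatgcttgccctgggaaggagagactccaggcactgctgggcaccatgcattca
The 3 placental lactogen windows are near copies of each other. With 1 window shifted by 17 bases, Prl3d1 and Prl3d2 had the same base at 277 of 283 positions, and Prl3d2 and Prl3d3, shifted by 4, at 295 of 296. TGANTCA occurs in 7.81% of the 32851 promoter windows of this kind and TGATGNAA in 3.97%. Among the 33 tested genes of the ATF4 list below, 28 had a window and 9 of these held TGATGNAA. They were Asns, which was higher in tumor libraries labelled shAsns-1, Atf3, Pycr1 and Slc7a11, which were lower, and Chac1, Gars, Jdp2, Nupr1 and Trib3, which were not called. Among the 22 matrix protease genes 14 had a window and 5 held TGANTCA, namely Mmp10, Mmp13 and Plaur, which were lower, and Mmp3 and Serpinb2, which were not called. A match is a description of the letters and not of binding.

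Between the tumor libraries labelled shAsns-1 and the other-hairpin lung libraries, 1475 of 12625 tested genes passed the call rule, an adjusted p under 0.05 in edgeR. Of all tested genes 4.25% were called higher and 7.43% lower, that is 537 and 938 genes. Changes of at least 2-fold leaned further to one side, with 19 higher and 143 lower. Most of these genes were at a low level, 138 of 162 with a mean log2 CPM under 3. Among the 24 at 3 or more, Asns and 6 others were higher and 17 were lower. All 4 tumor libraries lay above all 8 lung libraries for 3.33% of tested genes and below them for 4.02%. The count and its balance moved with the settings. It was 2903 (1361 higher and 1542 lower) without lung shAsns-2 D and shRenilla B, 522 without tumor shAsns-1 B, and 2319 with offsets for GC content and length, with which 56.4% of the called genes were higher, against 36.4% without them.

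The hairpin label and the site differ together in this comparison, so each difference was split with the 4 lung libraries labelled shAsns-1, which it does not use. Tumor minus lung within the shAsns-1 label is the site part, and lung shAsns-1 minus the other-hairpin lung libraries is the label part. The parts add up to the whole and share libraries with it, so they are given side by side and with no p-value for genes picked from the whole. The site part called 2.54% of genes higher and 6% lower in tumor libraries labelled shAsns-1. The label part called 0.206% of genes higher and 0.182% lower in lung libraries labelled shAsns-1, 49 genes in all, and 11 genes were called without lung shAsns-1 D. Of the 162 genes called with at least a 2-fold difference, 144 had a label part of at most 0.333 of the whole, 4 had one of at least 0.667 and 14 lay between. With a mean log2 CPM of 3 or more there were 24 such genes, and Asns alone went with the label. In the other 23 the label part was -0.58 to 0.24 of the whole. The site part is that of the shAsns-1 label alone, so a small label part does not make a site difference common to all hairpins. For Lbh the site part was 0.77, but tumor minus lung with the other hairpins was -1.26. For Clu these values were -1.44 and 0.02, whereas Mmp13 kept its sign, at -2.16 and -1.12. Lists of genes below were drawn up with earlier results of these data known, and are described by counts and medians without a test. Their counts are to be read beside all genes tested, of which 4.25% were called higher and 7.43% lower. In the site part these shares were 2.54% and 6%.

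**Figure D2:**
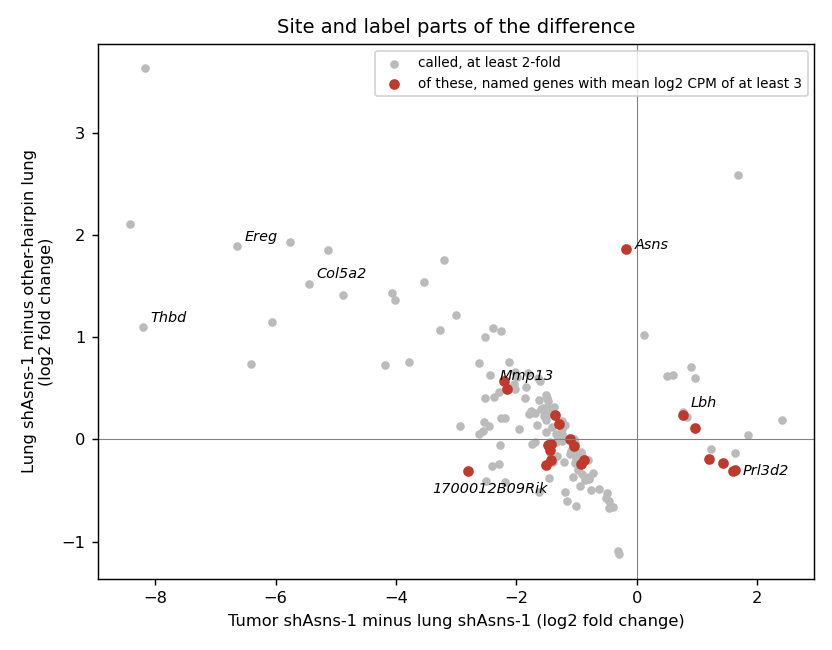
The log2 fold change of tumor shAsns-1 over lung shAsns-1 (x axis, the site part) against that of lung shAsns-1 over other-hairpin lung (y axis, the label part), for the 162 genes called with at least a 2-fold difference between tumor shAsns-1 and other-hairpin lung. Red points are the named genes with a mean log2 CPM of 3 or more. Asns sits near 0 on the site axis and at 1.86 on the label axis, whereas the other red points spread along the site axis.

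Another comparison shares no library with this one: the 4 lung libraries labelled shAsns-1 against the 8 other-hairpin tumor libraries. Here 17.8% of genes were higher and 15.8% lower in lung libraries labelled shAsns-1. Here lung is the first site, so a gene lower in tumor than in lung with every hairpin is higher in this comparison. Of the 938 genes lower in tumor libraries labelled shAsns-1 than in other-hairpin lung libraries, 276 (29.4%) were higher in lung libraries labelled shAsns-1 than in other-hairpin tumor libraries, and these made 12.3% of the 2253 genes called so. Of the 537 higher genes, 69 (12.8%) were lower in lung libraries labelled shAsns-1 and 94 (17.5%) were higher. Among the 938 lower genes 172 (18.3%) were lower there too. The share of 29.4% stood above its background of 17.8%, whereas the shares of the higher genes were near or below theirs. These 2 groups of libraries also lay apart on the first component, from which the libraries compared here were chosen. The adjusted p-values printed below for them are therefore not independent of that choice. The spread was also estimated over all 24 libraries together, so these p-values are given as a description.

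Asns had the largest rise of the genes named by the rule. It lies on chromosome 6 (7675169 to 7693254, minus strand, GRCm38). Tumor libraries labelled shAsns-1 had 185, 152, 185 and 159 CPM, against a range of 35.8 to 70.2 CPM (median 52.2) in the 8 other-hairpin lung libraries. The groups did not overlap, and the log2 fold change was 1.68 ± 0.13 (SE). Lung libraries labelled shAsns-1 had 219, 191, 176 and 189 CPM, so the site part was -0.19 and not called, and the label part was 1.86. Against the other-hairpin tumor libraries, which ranged from 26.2 to 100 CPM, Asns was higher in lung libraries labelled shAsns-1 by 1.82 (edgeR adjusted p = 3.69e-11), above them in 4 of 4 libraries.

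Among the enzymes that surround asparagine synthetase, Asns was the only one called higher, and 4 were without lung shRenilla B. Of 16 tested enzymes of aspartate, asparagine and glutamine, 1 was higher (Asns) and 3 were lower: Gpt2, which moves the amino group of alanine, by -0.64 ± 0.13 (log2 fold change ± SE, here and below), Nars, which charges tRNA with asparagine, by -0.55 ± 0.10, and the aspartate transaminase Got1 by -0.35 ± 0.08. The lower calls made 18.8% of the list, against 7.43% of all genes tested. Nars had 379, 346, 376 and 366 CPM in tumor libraries labelled shAsns-1 against 403 to 610 CPM (median 537) in other-hairpin lung libraries, and the groups did not overlap. Its 408 to 449 CPM in lung libraries labelled shAsns-1 lay within the range of the other-hairpin lung libraries. The glutamine synthetase gene Glul (0.07) and Atf4 itself (0.04) were not called.

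Genes of the ATF4 response, to which Asns belongs, were more often called lower (30.3%) than higher (9.09%). Over all genes tested these shares were 7.43% and 4.25%. Of 33 tested genes of the ATF4 amino acid response, 3 were higher (Asns, Eif4ebp1 by 0.62 and Cth by 0.55) and 10 were lower, with 6 lower without tumor shAsns-1 D and 1 higher without tumor shAsns-1 A or B. The list's median log2 fold change was -0.11, against -0.02 over all genes tested. Slc7a11, the cystine carrier, had 34.2, 31.8, 42.5 and 36.8 CPM in tumor libraries labelled shAsns-1 against 45.5 to 65.1 CPM (median 55.4) in other-hairpin lung libraries, with no overlap, a difference of -0.58 ± 0.12. Its partner chain Slc3a2 had 97.0, 76.0, 82.7 and 73.3 CPM in tumor libraries labelled shAsns-1 against 101 to 164 CPM (median 120) in other-hairpin lung libraries, also with no overlap (-0.57 ± 0.13). Pycr1, a proline synthesis enzyme, was at most 0.648 CPM in tumor libraries labelled shAsns-1, and its call (-1.27 ± 0.35) ended without tumor shAsns-1 A, B or D. Within the shAsns-1 label the site part called 3 members of the list lower (9.09%) and 1 higher (3.03%). This was near the shares of all genes tested, 6% and 2.54%.

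Of 20 tested enzymes that charge tRNAs with amino acids in the cytosol, 11 were called lower and 0 higher, with a list median of -0.33. The 11 made 55% of the list, against 7.43% of all genes tested, and 7 were lower without tumor shAsns-1 D. Sars, the seryl-tRNA synthetase, had 89.6, 85.7, 102 and 82.6 CPM in tumor libraries labelled shAsns-1 against 106 to 190 CPM (median 169) in other-hairpin lung libraries. The groups did not overlap, and the difference was -0.86 ± 0.16. Farsa, a chain of the phenylalanyl-tRNA synthetase, followed at -0.50 ± 0.12 and Yars, the tyrosyl-tRNA synthetase, at -0.43. Dars and Farsb, both at 0.05, were not called. In the site part 5 of the 20 were called lower and 0 higher. Lars2, the mitochondrial leucyl-tRNA synthetase, is not on this list and fell further. It had 171, 124, 248 and 218 CPM in tumor libraries labelled shAsns-1 against 387 to 454 CPM (median 426) in other-hairpin lung libraries, a difference of -1.14 ± 0.16. In lung libraries labelled shAsns-1 it had 436 to 502 CPM, and in other-hairpin tumor libraries 221 to 570 CPM, so the other tumor libraries overlapped the lung level and those labelled shAsns-1 did not. Rn45s, the ribosomal RNA precursor, was lower by -1.63 ± 0.36 but ranged from 266 to 3055 CPM within the other-hairpin lung libraries, and its part in the other values was not tested.

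The 3 placental lactogen genes Prl3d1, Prl3d2 and Prl3d3 were the next highest, and lie side by side on chromosome 13 (27094190 to 27162593 from the first start to the last end, GRCm38). Their products are pregnancy hormones of the placenta. Prl3d2 had 117, 42.5, 52.4 and 77.8 CPM in tumor libraries labelled shAsns-1 against 14.0 to 40.2 CPM (median 30.9) in other-hairpin lung libraries. The groups did not overlap, although tumor shAsns-1 A was far above the other 3, and the difference was 1.33 ± 0.22. Prl3d1 was higher by 1.20 ± 0.22, without overlap, and Prl3d3 by 1.29 ± 0.23, with the lowest tumor library at 15.0 CPM and the highest lung library at 15.6 CPM. The transcripts are near copies, so reads may have been divided among them, and the 3 values are uncertain as separate genes. Lung libraries labelled shAsns-1 had 15.3 to 29.2 CPM of Prl3d2 and other-hairpin tumor libraries 15.7 to 31.9 CPM, so these ranges lay below all 4 tumor libraries labelled shAsns-1. The site part of all 3 was called, and the site difference was larger with shAsns-1 than with the other hairpins by 1.60 to 2.12. Of the 12 tested genes of the prolactin family on the same chromosome only these 3 were called, and the other 9 ranged from -0.50 to 0.88.

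For Lbh and Gchfr the 4 tumor libraries labelled shAsns-1 lay above all 20 other libraries. Lbh, a regulator of transcription known in mammary epithelial progenitors, had 16.1, 17.1, 16.8 and 15.7 CPM in tumor libraries labelled shAsns-1 against 4.55 to 11.8 CPM (median 8.29) in other-hairpin lung libraries, a difference of 1.01 ± 0.16. It had 9.02 to 10.7 CPM in lung libraries labelled shAsns-1 and 2.28 to 4.6 CPM in other-hairpin tumor libraries, and these 2 groups differed by 1.5 (edgeR adjusted p = 1.19e-07). Gchfr, which encodes the feedback regulator of GTP cyclohydrolase, had 64.8, 88.6, 75.2 and 65.4 CPM in tumor libraries labelled shAsns-1 against 18.3 to 57.5 CPM (median 40.9) in other-hairpin lung libraries, with no overlap (0.90 ± 0.21), a call that ended without tumor shAsns-1 B. It had 34.4 to 45 CPM in lung libraries labelled shAsns-1 and 13.8 to 25.9 CPM in other-hairpin tumor libraries (1.01, edgeR adjusted p = 0.000745). Hcfc1r1, whose product binds the cofactor HCF-1, had 25.3, 40.7, 23.1 and 26.0 CPM in tumor libraries labelled shAsns-1 against 6.03 to 17.8 CPM (median 14.1) in other-hairpin lung libraries, and the difference was 1.09 ± 0.17. The metallothionein gene Mt1 had 708, 799, 693 and 633 CPM in tumor libraries labelled shAsns-1 against 162 to 538 CPM (median 383) in other-hairpin lung libraries, with no overlap (0.92 ± 0.17). Its 429 to 507 CPM in lung libraries labelled shAsns-1 lay within the range of the other-hairpin lung libraries, and the site part of 0.57 was not called. Hist1h2ac was higher by 0.83 ± 0.25, a call lost in 7 of 20 alternatives.

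**Figure D3:**
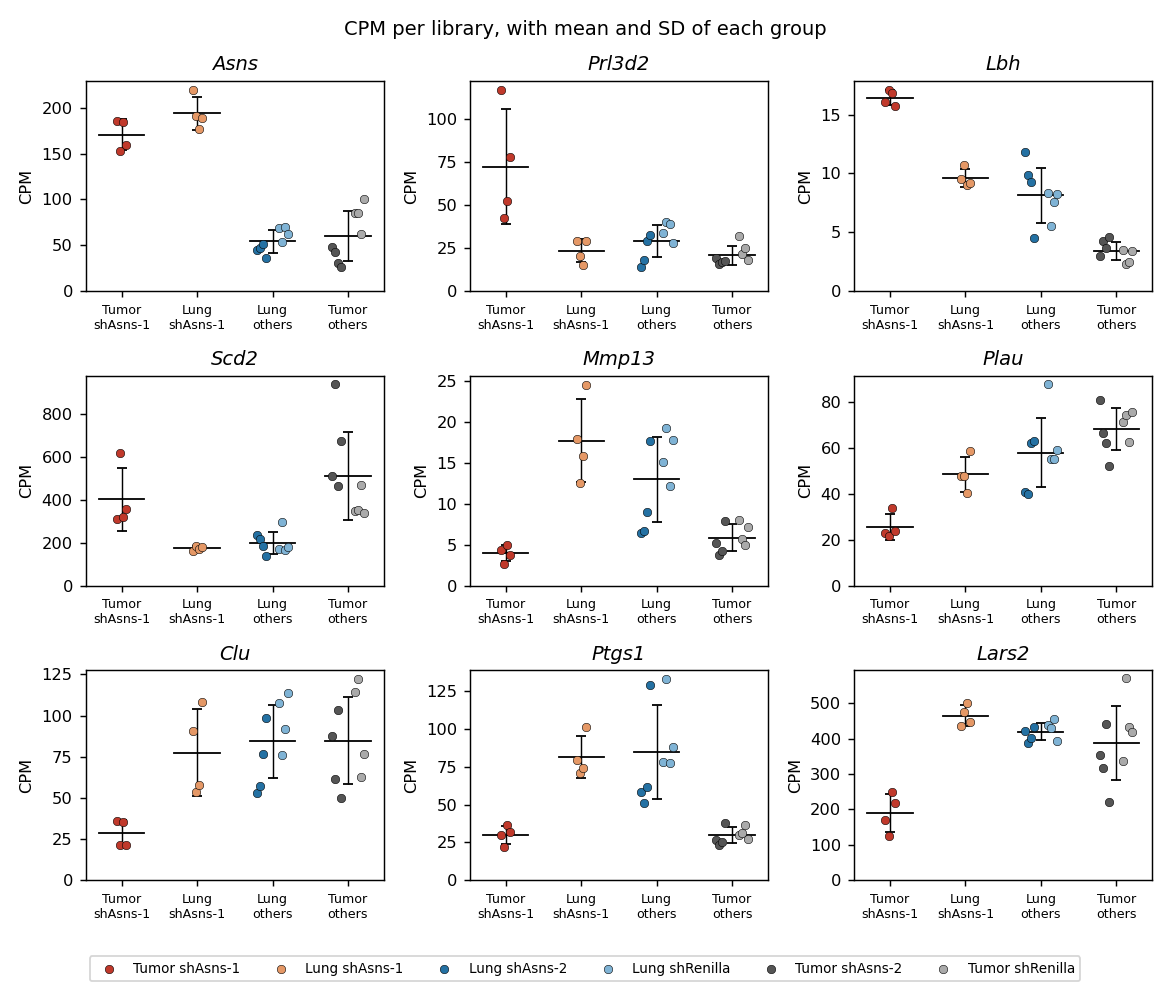
CPM of 9 genes (y axes, from 0) in each library of tumor shAsns-1, lung shAsns-1, the other-hairpin lung and the other-hairpin tumor groups, with the mean as a line and the SD as a bar. For Prl3d2, Lbh, Plau and Clu the tumor libraries labelled shAsns-1 lie apart from all 20 others. For Ptgs1 they overlap the other tumor libraries, at 22.3 to 36.3 CPM against 23.4 to 37.9 CPM.

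The called genes of lipid synthesis were higher. Of 31 tested genes of cholesterol and fatty acid synthesis, 5 were higher and 0 lower, but 1 was called without tumor shAsns-1 B. Scd2, a stearoyl-CoA desaturase, had 312, 618, 319 and 358 CPM in tumor libraries labelled shAsns-1 against 139 to 295 CPM (median 183) in other-hairpin lung libraries, with no overlap (1.01 ± 0.19). Insig1, which holds back the sterol-regulated transcription factors, was higher by 0.67 ± 0.16 and Hmgcs1 of the mevalonate pathway by 0.49 ± 0.14. Both calls ended without tumor shAsns-1 B, the highest of the 4 libraries for each, and that of Hmgcs1 also with only the compared groups. Insig1 had 9.99 to 19.7 CPM in tumor libraries labelled shAsns-1 and 18.6 to 39.1 CPM in other-hairpin tumor libraries. In lung libraries labelled shAsns-1 against other-hairpin tumor libraries, Scd2 was lower by -1.5 (edgeR adjusted p = 2.87e-06) and Insig1 by -1.98 (edgeR adjusted p = 2.25e-09). The site part called 8 of the 31 higher and 0 lower.

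Families chosen by symbol after seeing the values were counted beside the background of 4.25% higher and 7.43% lower. Of 76 ribosomal protein genes (Rpl and Rps) 14 were higher and 0 lower. Of 76 mitochondrial ribosomal protein genes 19 were higher and 2 lower. Of 36 Nduf genes without the assembly factors, nearly all subunits of respiratory complex I, 10 were higher and 1 lower. Their median log2 fold changes were 0.18, 0.18 and 0.29, in this order. The site part called 1, 12 and 5 of them higher, against a background of 2.54%. With 1 library left out these site counts were 0 to 1, 3 to 11 and 1 to 3. With only the compared groups they were 30, 35 and 27. The counts of higher genes in the comparison itself also rested on single libraries and on the fit. They were 2, 7 and 2 without tumor shAsns-1 A, 3, 5 and 2 without B, 4, 11 and 5 without D, and 2, 7 and 2 with only the compared groups. The ribosomal count was also 7 without tumor shAsns-1 C, 8 without lung shAsns-2 B and 5 without lung shAsns-2 D. Under the offsets for GC content and length the counts were 23, 27 and 17. Genes called higher had a median transcript length of 2419 bases, against 3050 for genes called lower and 3376 for genes not called.

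Over a wide set of matrix proteases and their inhibitors the tumor libraries labelled shAsns-1 were lower. Of 22 tested genes 12 were lower and 0 higher in tumor libraries labelled shAsns-1, 9 to 13 with any 1 library left out, and the list median was -0.67. Mmp13, a collagenase, had 4.39, 2.70, 4.99 and 3.69 CPM in tumor libraries labelled shAsns-1 against 6.4 to 19.2 CPM (median 13.7) in other-hairpin lung libraries. The groups did not overlap, and the difference was -1.67 ± 0.26. Mmp13 had 12.6 to 24.6 CPM in lung libraries labelled shAsns-1 and 3.73 to 8.05 CPM in other-hairpin tumor libraries, and these 2 groups differed by 1.61 (edgeR adjusted p = 4.67e-06). The tumor libraries labelled shAsns-1 overlapped the other tumor libraries for this gene.

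For Plau and Mmp9 they were below the other tumor libraries too. Plau, the urokinase plasminogen activator, had 22.8, 21.5, 33.7 and 24.0 CPM in tumor libraries labelled shAsns-1 against 39.9 to 87.9 CPM (median 57.1) in other-hairpin lung libraries, a difference of -1.17 ± 0.16. It had 40.1 to 58.3 CPM in lung libraries labelled shAsns-1 and 52.1 to 80.5 CPM in other-hairpin tumor libraries. Mmp9, a gelatinase, had 9.69, 9.06, 11.7 and 12.5 CPM in tumor libraries labelled shAsns-1 against 13.6 to 38 CPM (median 22.0) in other-hairpin lung libraries, with no overlap (-1.09 ± 0.22). It had 20.2 to 28.2 CPM in lung libraries labelled shAsns-1 and 25 to 47.4 CPM in other-hairpin tumor libraries. The tumor libraries labelled shAsns-1 were thus the lowest of all 24 for both genes. The site difference was lower with shAsns-1 than with the other hairpins by -1.17 for Plau and -1.69 for Mmp9, both called. Timp3, which blocks metalloproteinases, was lower as well, at 0.197 to 0.462 CPM in tumor libraries labelled shAsns-1 against 0.824 to 2.52 CPM in other-hairpin lung libraries. Mmp3, a stromelysin, averaged 509 CPM in tumor libraries labelled shAsns-1 and 572 CPM in other-hairpin lung libraries and was not called, whereas it averaged 90.7 CPM in tumor shAsns-2 and 87.1 CPM in tumor shRenilla. The site part called 8 of the 22 lower and 0 higher.

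Some genes of the matrix itself were also lower. Of 26 tested collagens and matrix genes 6 (23.1%, against 7.43% of all genes tested) were lower and 0 higher. This count was 3 without tumor shAsns-1 D. Lamb3, a chain of laminin-332, had 4.61, 3.97, 4.17 and 4.61 CPM in tumor libraries labelled shAsns-1 against 5.84 to 34.1 CPM (median 10.4) in other-hairpin lung libraries, with no overlap (-1.54 ± 0.34). P4ha2, which hydroxylates collagen prolines, was lower by -1.11 ± 0.20 and Igfbp7, a secreted binding protein of insulin-like growth factors, by -1.12 ± 0.19. Col5a2, a fibrillar collagen chain, was at 0.0555 to 0.153 CPM in tumor libraries labelled shAsns-1, against 0.538 to 2.67 CPM in other-hairpin lung libraries and 2.06 to 10.0 CPM in lung libraries labelled shAsns-1. Lox, which crosslinks collagen, was at 0.0381 to 0.231 CPM in tumor libraries labelled shAsns-1 against 0.402 to 1.96 CPM in other-hairpin lung libraries. Neither gene overlapped between tumor libraries labelled shAsns-1 and either lung set.

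Thbd, Car2 and Tmem47 had no count in any of the 4 tumor libraries labelled shAsns-1. Taking 3 counts over the group as the limit of detection, Thbd, the thrombomodulin gene, was at least 24.7-fold lower than in other-hairpin lung libraries (mean 0.600 CPM), Car2, a carbonic anhydrase, at least 14.0-fold lower (0.340 CPM) and the membrane protein gene Tmem47 at least 9.20-fold lower (0.223 CPM). These limits cover counting error only. Of the 5 tested fibroblast markers 3 were called lower in the site part and 0 in the comparison itself. Pdgfra, most of the fibroblast sum, overlapped within the shAsns-1 label, at 23.1 to 31.5 CPM in tumor and 28.4 to 41.2 CPM in lung libraries. Col3a1 was at 0 to 0.0564 CPM in tumor libraries labelled shAsns-1, 0.0717 to 0.577 CPM in other-hairpin lung libraries and 0.311 to 8.53 CPM in lung libraries labelled shAsns-1, where library D was the highest. The part of such cells in these values was not tested.

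The genes of the epithelial-mesenchymal transition did not move as a block. Of 15 tested, 3 were higher and 5 lower, and without tumor shAsns-1 B 0 were higher and 2 lower, and without D 1 was higher. Vim, the mesenchymal intermediate filament, averaged 4355 ± 398 CPM in tumor libraries labelled shAsns-1 (SD, n = 4) and 3290 ± 310 CPM in other-hairpin lung libraries (n = 8), a difference of 0.41 ± 0.10. Twist1, a transcription factor of the transition, had 38.3, 46.6, 35.3 and 45.6 CPM in tumor libraries labelled shAsns-1 against 25.4 to 32.2 CPM (median 28.8) in other-hairpin lung libraries, with no overlap (0.53 ± 0.14). Both calls ended without tumor shAsns-1 B, and that of Twist1 also without tumor shAsns-1 D and under the GC and length offsets. The lower members were Acta2 by -2.21 ± 0.37 and Tagln by -1.88 ± 0.24, both of smooth muscle type, Mylk, the matrix gene Fn1 (-0.66 ± 0.16) and the cadherin gene Cdh11. Acta2 was at 0.310 to 0.424 CPM in tumor libraries labelled shAsns-1 against 1.00 to 2.77 CPM in other-hairpin lung libraries. The site part called 7 of the 15 lower and 0 higher.

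E-cadherin did not separate the compared libraries. Cdh1 had 29.9, 47.6, 36.1 and 32 CPM in tumor libraries labelled shAsns-1 against 27.7 to 44.2 CPM (median 33.5) in other-hairpin lung libraries, overlapping, with a difference of 0.11 ± 0.15 that was not called. Lung libraries labelled shAsns-1 were lower, at 18.6 to 24.5 CPM, and the site part of 0.84 was called. The other-hairpin tumor libraries had 151 to 298 CPM, and lung libraries labelled shAsns-1 differed from them by -3.53 (edgeR adjusted p = 1.21e-13). Of 24 tested genes of epithelial adhesion and junctions 3 (12.5%) were lower, against 7.43% of all genes tested. They were the desmosomal cadherin Dsg2 by -0.77 ± 0.14, the junction protein gene F11r by -0.64 ± 0.14 and desmoplakin, Dsp, by -0.43 ± 0.09. In the site part 7 of the 24 were higher and 1 lower, and Dsg2 was instead called in the label part (-0.98). Of 6 keratins 2 were lower, Krt14 by -0.68 ± 0.16 and Krt17 by -1.64 ± 0.42, and the call of Krt17 ended without tumor shAsns-1 C or D. Of 14 epithelial regulators 2 (Foxa1 and Ovol1) were lower, 0 without tumor shAsns-1 B or D, and 1 without tumor shAsns-1 A or C, lung shAsns-2 C or D or lung shRenilla C. Of 13 integrins 4 were lower, led by Itga2 (-1.04 ± 0.32). Without tumor shAsns-1 A 0 integrins were called, 1 without tumor shAsns-1 B or D, lung shAsns-2 D or lung shRenilla A, and 2 without tumor shAsns-1 C, lung shAsns-2 C or lung shRenilla C or D.

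Antigen presentation and endoplasmic reticulum genes were lower in part. Of 19 tested genes of MHC class I presentation 8 (42.1%) were lower and 0 higher, against 7.43% and 4.25% of all genes tested. But 3 were called without tumor shAsns-1 B and 4 without D. Tap2, which carries peptides into the endoplasmic reticulum, had 1.53, 1.85, 1.47 and 1.5 CPM in tumor libraries labelled shAsns-1 against 1.96 to 3.52 CPM (median 2.59) in other-hairpin lung libraries, with no overlap (-0.77 ± 0.19). H2-Q4, a class I heavy chain from a family of close copies, was lower by -1.26 ± 0.30. H2-K1 (-0.20) and B2m (0.16), the genes of a main heavy chain and of the shared light chain, were not called. Of 25 tested genes of the unfolded protein response 8 (32%) were lower and 1 (4%) higher, with 3 lower without tumor shAsns-1 B. The disulfide isomerase genes Pdia3 (-0.80 ± 0.19), Pdia4 (-0.79 ± 0.17) and Pdia6 (-0.70 ± 0.16) led it. The call of Pdia3 ended without tumor shAsns-1 B. Of 26 interferon-stimulated genes 0 were called by edgeR in the comparison, 3 were lower without lung shAsns-2 D and shRenilla B, and the site part called 6 lower.

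Most of the called cytokine genes were lower, as were most of all called genes. Of 32 tested chemokines and cytokines 7 (21.9%) were lower and 1 (3.1%) higher, Cxcl5 by 0.61. Over all genes tested 7.43% were lower and 4.25% higher. Without tumor shAsns-1 B or without D 3 cytokine genes were lower. Il11 had 11.6, 6.82, 13.6 and 13.0 CPM in tumor libraries labelled shAsns-1 against 13.8 to 29.1 CPM (median 21.4) in other-hairpin lung libraries, with no overlap (-0.85 ± 0.22). It had 24.3 to 37.2 CPM in lung libraries labelled shAsns-1 and 4.64 to 11.9 CPM in other-hairpin tumor libraries (2.11, edgeR adjusted p = 1.27e-08). Il6 was lower by -1.31 ± 0.38, at 0.308 to 0.500 CPM in tumor libraries labelled shAsns-1 against 0.602 to 1.76 CPM in other-hairpin lung libraries. Its call ended with limma and library weights, and without any 1 of the 4 tumor libraries labelled shAsns-1. Of 29 tested targets of TGF-beta and YAP 7 (24.1%) were lower and 0 higher. This count was 1 without tumor shAsns-1 B, 4 without tumor shAsns-1 D and 12 without lung shRenilla B. They included Id2 (-0.76 ± 0.16), an inhibitor of helix-loop-helix factors, and Inhba (-0.87 ± 0.25), the activin A chain. Among the S100 genes 3 of 10 were higher and S100a8 was lower by -0.85 ± 0.20, and without tumor shAsns-1 A 0 were higher, and without B or D 1 was.

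Several of the largest falls were in single genes of other kinds. Clu, a secreted chaperone, had 36.0, 21.5, 35.6 and 21.4 CPM in tumor libraries labelled shAsns-1 against 53.0 to 114 CPM (median 84.2) in other-hairpin lung libraries, with no overlap (-1.54 ± 0.24). It had 53.5 to 108 CPM in lung libraries labelled shAsns-1 and 50.0 to 122 CPM in other-hairpin tumor libraries, so the tumor libraries labelled shAsns-1 were below all 20 others. Ptgs1, which encodes cyclooxygenase 1, had 30.2, 22.3, 36.3 and 31.8 CPM in tumor libraries labelled shAsns-1 against 51.2 to 133 CPM (median 77.8) in other-hairpin lung libraries, with no overlap (-1.48 ± 0.21). Its level was 70.9 to 102 CPM in lung libraries labelled shAsns-1, and other-hairpin tumor libraries had 23.4 to 37.9 CPM (1.46, edgeR adjusted p = 1.19e-06). Ptgs1 was thus lower in all 12 tumor libraries than in all 12 lung libraries.

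Hsd11b1, which activates glucocorticoids, had 8.05, 3.43, 7.33 and 4.16 CPM in tumor libraries labelled shAsns-1 against 9.53 to 26.6 CPM (median 21.8) in other-hairpin lung libraries, with no overlap (-1.76 ± 0.25). The adhesion receptor gene Gpr97 had 23.3, 13.5, 24.0 and 23.7 CPM in tumor libraries labelled shAsns-1 against 39.0 to 120 CPM (median 60.8) in other-hairpin lung libraries, also with no overlap (-1.62 ± 0.24). The largest fall with a mean log2 CPM of 3 or more was that of 1700012B09Rik, a gene known only by its clone name and singled out after its values were seen. It had 3.78, 1.70, 2.85 and 2.69 CPM in tumor libraries labelled shAsns-1 against 17.3 to 26.9 CPM (median 25.6) in other-hairpin lung libraries, a difference of -3.11 ± 0.19. Lung libraries labelled shAsns-1 had 16.0 to 22.4 CPM and other-hairpin tumor libraries 1.92 to 3.60 CPM, and these differed by 2.71 (edgeR adjusted p = 1.04e-12). All 12 tumor libraries of the series were thus at most at 3.78 CPM and all 12 lung libraries at 16.0 CPM or more.

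**Figure D4:**
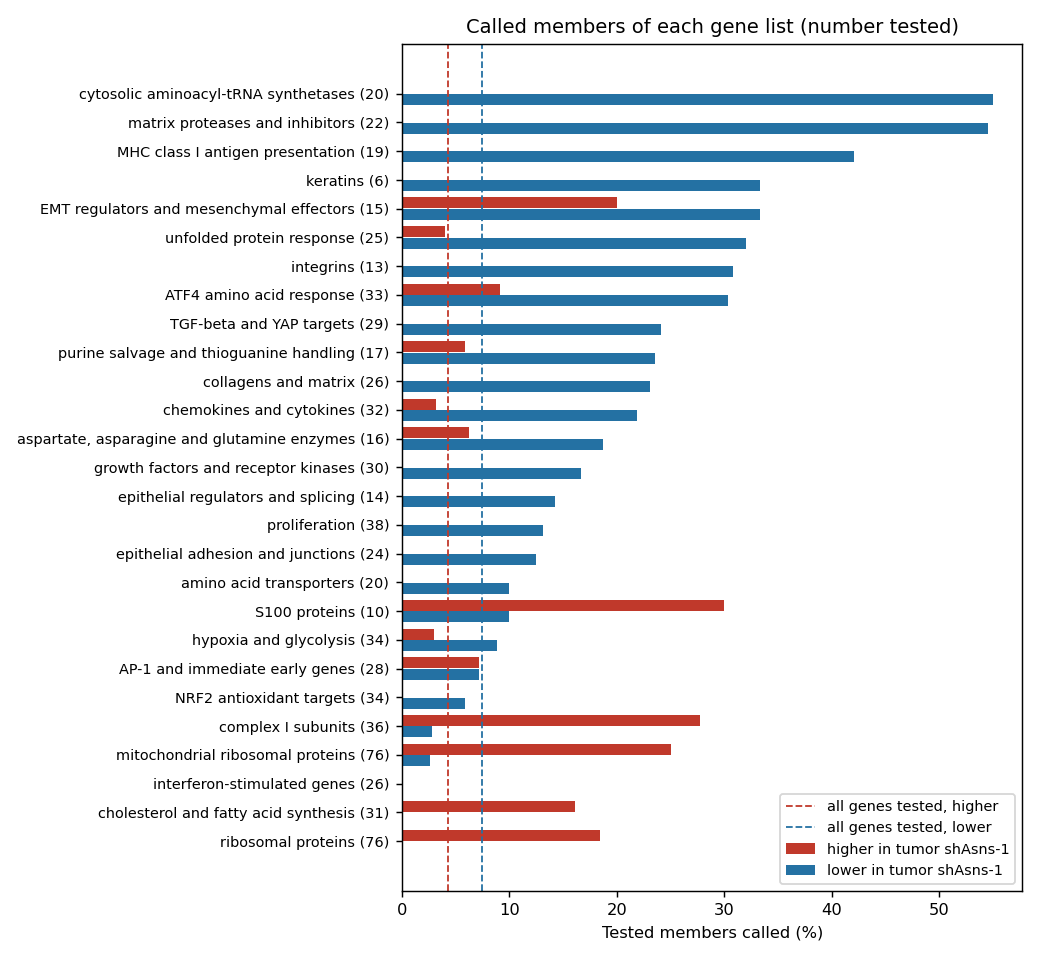
Percent of the tested members of each gene list that were called higher (red) or lower (blue) in tumor shAsns-1 than in other-hairpin lung libraries, with the number tested in parentheses and dashed lines for all genes tested, at 4.25% higher and 7.43% lower. Aminoacyl-tRNA synthetases and matrix proteases have the longest blue bars, with 11 of 20 and 12 of 22 lower.

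Genes of 6TG handling and proliferation were looked at because all cells had been selected in that drug. Hprt, the enzyme that activates 6TG, had 624, 476, 508 and 470 CPM in tumor libraries labelled shAsns-1 against 436 to 799 CPM (median 573) in other-hairpin lung libraries, overlapping and not called (-0.21 ± 0.14). Of 17 tested genes of purine salvage and 6TG handling 4 were lower and 1 higher, with 2 lower without tumor shAsns-1 B, C or D. Impdh2, an enzyme of guanine nucleotide synthesis, was lower by -0.68 ± 0.13 and Slc29a1, a nucleoside carrier, by -0.63 ± 0.14, whereas Tpmt, which methylates thiopurines, was higher by 0.43 ± 0.10. Of 38 tested proliferation genes 5 (13.2%, against 7.43% of all genes) were lower and 0 higher, among them Kif20a (-1.07 ± 0.22) and Top2a (-0.27 ± 0.08). The count was 2 without tumor shAsns-1 A, B or D or lung shRenilla A, and 3 without lung shAsns-2 A, B or C or lung shRenilla C. Of 34 hypoxia and glycolysis genes 3 were lower and 1 higher. Lower calls were made for 2 of 34 NRF2 targets, 5 of 30 growth factors and receptor kinases and 2 of 20 amino acid transporters, and 2 of 28 AP-1 and immediate early genes were called in each direction. Without tumor shAsns-1 B these counts were 3 for the growth factors, 1 for NRF2 and, for AP-1, 0 higher and 1 lower, and without lung shRenilla B they were 4 for NRF2, 4 for AP-1 in each direction, 4 for the transporters and 6 for the lower hypoxia genes. With any 1 library left out, the higher counts ranged from 0 to 4 for AP-1 and from 0 to 3 for hypoxia. Against the background of 4.25% higher and 7.43% lower, the counts of the NRF2, hypoxia, AP-1 and amino acid transporter lists were near what all genes showed.

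The called genes of the comparison were not spread evenly over the chromosomes. The choice of libraries did not use gene position, but the values of these genes entered the first component it rested on. On chromosome 9, 125 of 717 tested genes (17.4%) were lower and 10 higher, and 78.9% of the tested genes had a log2 fold change below 0. The median log2 fold change was -0.19 on chromosome 9, against -0.02 over all genes. It was below 0 in each of the 7 windows of 20 Mb along the chromosome, from -0.24 to -0.11. The site part gave -0.24 with 151 genes lower. Between lung libraries labelled shAsns-1 and other-hairpin tumor libraries the chromosome 9 median was 0.33, so the lung libraries were again the higher ones.

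Values by library showed the same division. The median over chromosome 9 genes of the log2 CPM relative to the mean of all libraries, less that over all genes, was -0.12 to -0.02 in tumor libraries labelled shAsns-1, 0.13 to 0.18 in lung libraries labelled shAsns-1, 0.07 to 0.14 in other-hairpin lung libraries and -0.16 to -0.13 in other-hairpin tumor libraries. All 12 tumor libraries were below 0 and all 12 lung libraries above it. On this measure the tumor libraries labelled shAsns-1 went with the labelled site, while remaining above the other tumor libraries. Mmp13, Lars2, Tagln and 1700012B09Rik lie on chromosome 9. Chromosome 4 leaned the other way. There 87 of 791 tested genes (11.0%) were higher and 24 lower, with a median of 0.10. The site part gave a median of 0.04, with 35 genes higher and 23 lower, and the label part a median of 0.06. The library value was 0.06 to 0.11 in tumor libraries labelled shAsns-1 and at most 0.03 in any of the other 20. Smaller divisions of both kinds were seen elsewhere. On chromosome 6 the library value was at most 0.006 in all 12 tumor libraries and at least 0.028 in all 12 lung libraries, with 11.2% of genes lower. On chromosome 2 it was 0.037 to 0.084 in tumor libraries labelled shAsns-1 and at most 0.028 in the other 20. The number of copies of these chromosomes was not measured, and its part in these values was not tested.

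**Figure D5:**
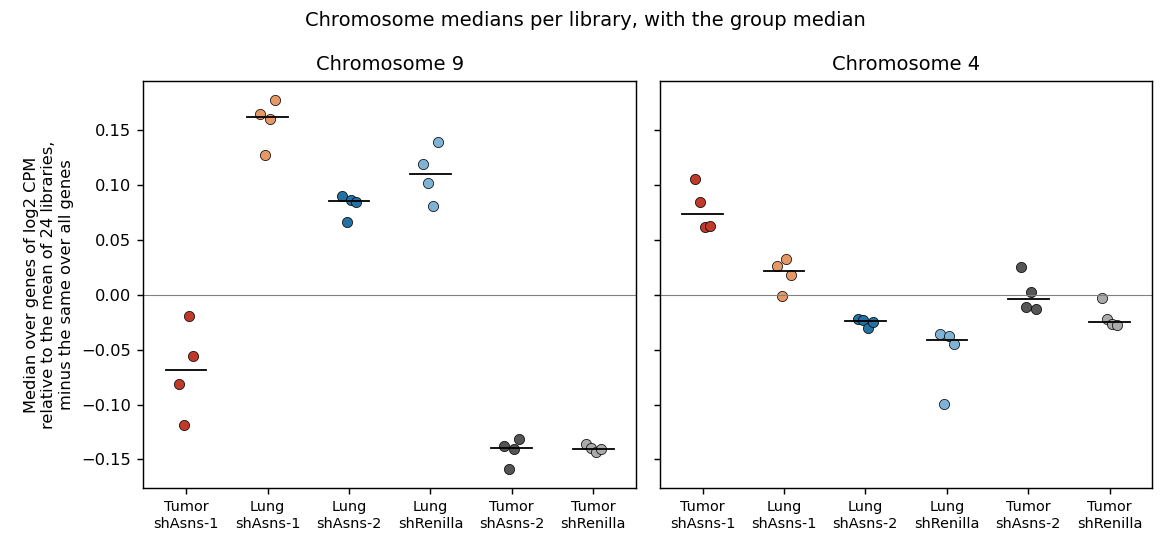
For each library (points) the median over genes of chromosome 9 (left) and chromosome 4 (right) of log2 CPM relative to the mean of the 24 libraries, less the same median over all genes (y axis), with the group median as a line. On chromosome 9 all 12 tumor libraries lie below 0 and all 12 lung libraries above it, and on chromosome 4 the 4 tumor libraries labelled shAsns-1 lie above the other 20.

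The site difference itself could be compared between hairpins. Tumor minus lung with shAsns-1, set against tumor minus lung with the other hairpins, differed for 8.82% of tested genes upward and 10.1% downward, 2390 genes in all. Among genes named above, the difference was -3.29 for Lox, -3.13 for Krt17 and -2.84 for Krt14, and 2.12 for Prl3d2 and 2.03 for Lbh, all called. This contrast uses the tumor and lung libraries compared above, which were chosen by the positions of all libraries on the first component. It is therefore not independent of them or of that choice, and its calls are a description.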

How the data were processed

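RNA-seq counts per gene symbol were deposited as 1 table of 23478 symbols for 24 libraries in 6 groups of 4. The submitters' processing notes name Bowtie2, HTSeq and mm10, and the strand setting of the counting and the versions are not given in the sources used here. Without a known strand setting, overlapping and antisense genes are uncertain.

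The deposited counts were scaled by TMM, filtered with filterByExpr (12625 genes left) and fitted in edgeR 4.0.16 (R 4.3.3) by quasi-likelihood with 1 mean per group over all 24 libraries. The call rule was an adjusted p under 0.05 (Benjamini-Hochberg, over all genes tested). CPM was computed from the counts, and SE is the size of the log2 fold change divided by the root of its F. The biological coefficient of variation was 14.9%. Totals ran from 8.48 M to 38.0 M counts (median 28.7 M), and limits cover counting error only. No 2 libraries of a group agreed within sampling noise. Scripts were tested on simulated data. Positions, GC content and length came from GENCODE M21 (23037 symbols matched, and 98.9% of tested genes had GC content and length). The labels name no batch.

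Members and lists were chosen with earlier results of these data known. The 12 highest and 12 lowest called genes with a mean log2 CPM of 3 or more whose 4 tumor libraries lay beyond all 8 lung libraries were named, with Asns, Hprt and up to 4 called members a list. Other genes are given for a role in the text. Alternatives were DESeq2 1.42.0, a fit of only the compared groups, limma 3.58.1 with library weights, a replicate block, no filter, each library left out, and lung shAsns-2 D and shRenilla B left out. Families by symbol, GC and length offsets and chromosome medians were added after seeing the data. A few called members of the lists are counted but not reported by name here.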

Additional observations from a re-analysis of the deposited data

Results flagged for a closer look

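The level of 64 genes named in the text was looked at in each of the 4 groups of 4 libraries behind the comparisons, which gives 256 groups of values. In 29 of them 1 library stood apart from the other 3 by Dixon's test at its 95% critical value. The test sets the gap against the range, so a flagged gap can be small. For Nars, lung shRenilla B had 593 CPM and the others of its group 530 to 534 CPM. Chance gives about 1 in 20 for a single group, but genes of the same library are not independent.

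In tumor shAsns-1 B this was so for Hcfc1r1 (40.7 CPM), Scd2 (618 CPM), AI413582 (39.9 CPM), Hist1h2ac (23.8 CPM), Gpr97 (13.5 CPM), Timp3 (0.462 CPM), Dsg2 (15.6 CPM), Insig1 (19.7 CPM), Hmgcs1 (152 CPM) and Tap2 (1.85 CPM). In lung shRenilla B this was so for Hprt (799 CPM), Scd2 (295 CPM), 1110008P14Rik (7.15 CPM), Sars (106 CPM), Nars (593 CPM), Insig1 (11.3 CPM), Hmgcs1 (118 CPM) and Impdh2 (149 CPM). In lung shAsns-2 D this was so for Lamb3 (34.1 CPM), Ptgs1 (129 CPM), Mmp9 (38 CPM), Timp3 (2.52 CPM), Fn1 (1540 CPM) and Psmb8 (14.7 CPM). In lung shRenilla A this was so for Plau (87.9 CPM). In lung shAsns-1 D this was so for Col5a2 (10 CPM) and Ereg (11.4 CPM). In lung shAsns-1 B this was so for Cdh1 (24.5 CPM). In lung shAsns-1 A this was so for Atf5 (2.13 CPM). Tumor shAsns-1 B, lung shAsns-2 D and lung shRenilla B held most of these values, and the reason was not tested.

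The difference of tumor minus lung between the shAsns-1 label and the other hairpins was fitted with edgeR. Of the named genes 40 were called at an adjusted p under 0.05. Among all genes tested 8.82% were called upward and 10.1% downward. The libraries and the named genes were chosen with values that enter this contrast, so these calls are a description. Values are on the log2 scale. The difference was higher with the shAsns-1 label for 11 genes: Prl3d2 (2.12), Prl3d1 (1.6), Prl3d3 (1.9), Hcfc1r1 (0.72), Lbh (2.03), 2310039H08Rik (0.83), AI413582 (1.37), 1110008P14Rik (1.13), Gchfr (1.81), Twist1 (0.64) and Tpmt (0.71). It was lower for 29 genes. They were Mmp13 (-1.04), Clu (-1.45), Lamb3 (-2.41), Plau (-1.17), Lars2 (-1.16), Igfbp7 (-1.82), P4ha2 (-1.34), Mmp9 (-1.69), Rn45s (-2.03), Timp3 (-2.17) and Col5a2 (-2.69). The others were Bgn (-2.97), Acta2 (-2.18), Tagln (-1.5), Fn1 (-0.79), Dsg2 (-1.64), F11r (-0.86), Dsp (-0.99), Cdh1 (-1.96), Krt17 (-3.13) and Krt14 (-2.84), with Sars (-0.62), Pdia3 (-0.78), Hyou1 (-0.74), Insig1 (-0.77), Tap2 (-1.17), H2-Q4 (-1.34), Il6 (-1.5) and Cxcl2 (-2.49).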

How the results depend on the processing

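Counts of called genes depended on the fit and on single libraries, and the cause was not tested. Between tumor shAsns-1 and other-hairpin lung libraries 1475 genes became 4326 with limma and library weights, 936 with only the compared groups, 2903 without lung shAsns-2 D and shRenilla B and 2319 with GC content and length offsets. Leaving out 1 library gave 522 to 2739 (878 without tumor shAsns-1 A, 522 without B, 733 without D, 2739 without lung shRenilla B). Between tumor and lung shAsns-1 libraries 1079 became 4116, 3683, 3015 and 1861 in the same order, with 62.1% higher under the offsets against 29.7%, and 412 to 794 with 1 library left out. DESeq2 gave 1437, of which 41.3% were higher. Between lung shAsns-1 and other-hairpin lung libraries 49 became 78 with DESeq2, then 1513, 11, 130 and 74, and 11 to 99 with 1 library left out. The 2390 genes whose site difference depended on the label became 5421 with limma, 4454 without both lung libraries and 3191 with the offsets (57.8% higher against 46.6%), and 1807 to 3598 with 1 library left out. The 4251 of lung shAsns-1 against other-hairpin tumor libraries stayed within 1.5 times.

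Of the genes called in both comparisons without shared libraries, 345 in opposite directions became 1245 with limma, 953 without both lung libraries and 581 with the offsets, and 142 to 751 with 1 library left out. The 266 in the same direction became 174 with no filter, 933 with limma, 154 with only the compared groups, 494 without both lung libraries and 428 with the offsets, and 96 to 465 with 1 library left out. The chromosome 4 median was 0.0623 with no filter and 0.1303 with the offsets against other-hairpin lung libraries (0.0859 to 0.1155 with 1 library left out), and 0 and 0.1088 against lung shAsns-1 (0.0289 to 0.0523). The chromosome 9 median was -0.1357 with the offsets against other-hairpin lung libraries (-0.1965 to -0.1704) and -0.1763 against lung shAsns-1 (-0.2504 to -0.2295). The offsets, and the chromosome values, were chosen after seeing the data.

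The letters A to D did not pair the libraries: deviations of the same letter correlated from -0.41 to 0.46 (median 0.012), 16 of 60 pairs were above 0.1, and 10 of 24 libraries correlated best with their own letter. With the letter as a replicate block the counts were 1431, 1150, 46, 4259 and 2454, and 339 opposite and 253 same. Genes at a few counts per library, such as Thbd and Col3a1, have no precise fold change at this depth.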
